A study of Homo sapiens with 5 samples.

Results

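Of the 21113 TEAD4 peaks in LX-2 cells, 1454 (6.89%) lay at CpG-rich promoters of protein-coding genes. A peak was placed in this class when its summit, the position of highest signal, was within 1 kb of the transcription start site (TSS) of any protein-coding transcript of GENCODE release 44 on hg38, and when the nearest such TSS had an observed/expected CpG ratio above 0.6 over 500 bp on either side. The rule used position and sequence composition only, so the signal of the peaks and the motifs beneath them did not enter it. The remaining peaks were 1263 at CpG-poor promoters (nearest TSS within 1 kb, ratio at or below the threshold) and 18396 distal peaks with a summit over 1 kb from every protein-coding TSS.

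LX-2 is an immortalised human hepatic stellate cell line, grown here in DMEM with fetal bovine serum and given only DMSO, and served the study as its human myofibroblast-like stellate cell model. Cross-linked chromatin of 3 biological replicates was immunoprecipitated with an antibody against TEAD4 and sequenced with 2 input samples, one for replicates 1 and 2 and one for replicate 3. The study asked which transcription factors act on myofibroblast genes under control of O-GlcNAcylation, and the TEAD4 peaks were mapped in DMSO cells only, so no treated group was compared. The authors kept replicates 1 and 3 and combined them into a single list, in which each peak has 1 signal value (the peak caller's measure of its strength), 1 score and 1 summit. No spread between replicates could therefore be given and the depth of the samples is unknown. Intervals on shares are Wilson 95% intervals and cover counting error over peaks or genes only. Peaks are not independent replicates, and in bulk chromatin a weak peak in all cells and a strong peak in few cells cannot be told apart. No transcript levels were used here, so the labelled cell type was not checked against its markers.

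TEAD1 to TEAD4 are the DNA-binding partners of YAP and TAZ, the coactivators that the Hippo kinases LATS1 and LATS2 hold in the cytoplasm, and in stellate cells YAP activity is known to accompany activation by a stiff matrix. TEAD proteins recognise the sequence ACATTCC and its shorter core CATTCC, and at enhancers they often bind beside AP-1, the FOS and JUN dimer that recognises TGACTCA. CpG-rich promoters are the usual promoters of housekeeping and many developmental genes, have open chromatin in most cell types, and carry GC boxes and sites for ETS, NRF1 and NFY factors.

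The sequences under the strongest peaks of the class are shown first because the TEAD core recurs in them. Of the 10 peaks with the highest signal value, 6 held ACATTCC on either strand within 100 bp of the summit, and 9 held CATTCC. Over all 1454 peaks of the class these shares were 19.3% and 44.8%. The windows below come from the hg38 plus strand, 5′ to 3′, with capitals on the letters of the TEAD motif and its core, whose minus-strand copies read GGAATGT and GGAATG. They cover chr16:68237676-68237762 for ESRP2, chr3:134374500-134374528 for AMOTL2, chr18:3247489-3247517 for MYL12A, chr6:131951421-131951507 for CCN2, chr12:57847058-57847144 for CTDSP2, chr16:67246142-67246228 for SLC9A5, chr12:107094268-107094353 for CRY1, chr18:3261803-3261888 for MYL12B and chr1:214551884-214551969 for PTPN14. The windows at AMOTL2 and MYL12A are short because they lie in annotated exons.
ESRP2: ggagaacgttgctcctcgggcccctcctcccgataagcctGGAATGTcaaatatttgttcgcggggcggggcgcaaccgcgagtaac
AMOTL2: ctgctatgccaGGAATGTgagagtttcag
MYL12A: cgccgtgccctGGAATGTgcggccaggca
CCN2: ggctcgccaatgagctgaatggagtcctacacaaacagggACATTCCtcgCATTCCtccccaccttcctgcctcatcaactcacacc
CTDSP2: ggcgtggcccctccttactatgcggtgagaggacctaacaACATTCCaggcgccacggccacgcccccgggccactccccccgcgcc
SLC9A5: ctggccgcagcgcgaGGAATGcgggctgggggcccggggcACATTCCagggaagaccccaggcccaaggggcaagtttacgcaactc
CRY1: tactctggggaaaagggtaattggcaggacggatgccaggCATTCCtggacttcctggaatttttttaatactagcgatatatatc
MYL12B: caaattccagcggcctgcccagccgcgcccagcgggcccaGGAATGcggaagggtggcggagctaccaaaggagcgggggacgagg
PTPN14: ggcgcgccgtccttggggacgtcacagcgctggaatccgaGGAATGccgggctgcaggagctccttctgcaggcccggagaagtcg

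CCN2 showed ACATTCC and CATTCC side by side on the same strand, and SLC9A5 showed the motif and the core on opposite strands. The windows of CRY1, MYL12B and PTPN14 held the core without the leading A of the longer motif. AJUBA, which encodes a LIM protein that binds LATS kinases, was the only one of the 10 strongest with no CATTCC within 100 bp of the summit. A letter match is a description and does not show which bases TEAD4 contacted.

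The ESRP2 peak (chr16:68237474-68237985) had the highest signal value of the class, 804. ESRP2 encodes an epithelial splicing regulator, and the summit lay 334 bp downstream of a TSS in an intron. AMOTL2, an angiomotin family protein that binds YAP, followed with a signal value of 733 (chr3:134374280-134374765), and its TEAD motif was centred 1 bp from the summit. The circadian repressor CRY1 had a signal value of 694. MYL12A and MYL12B, neighbouring genes for the regulatory light chains of non-muscle myosin II, each had a peak of their own, with signal values of 671 and 633. CCN2, the connective tissue growth factor and a classical YAP target, had a value of 617 at a summit 114 bp upstream of its TSS. The phosphatase gene CTDSP2 (565), AJUBA (557), the YAP-binding phosphatase PTPN14 (498) and the sodium/proton exchanger SLC9A5 (481) completed the 10 strongest. For comparison, the median signal value of the class was 54.4.

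The class as a whole was weaker than the other peaks. Its median signal value was 54.4 (quartiles 40.2 and 86.1, range 6.64 to 804), against 69.9 at CpG-poor promoters and 69.4 at distal peaks. A signal value above the median of the whole list (68.1) was found for 512 of 1454 peaks (35.2%, 32.8 to 37.7%), for 51.1% of distal peaks (Fisher's exact test, two-sided as in all such tests here, p = 1.14e-31, odds ratio 0.521, 0.466 to 0.582 as its 95% confidence interval) and for 51.5% of CpG-poor promoter peaks (odds ratio 0.513, 0.439 to 0.598, Fisher's exact test p = 1.44e-17). The highest score of 1000, which marks the best agreement of ranks between the replicates, was held by 67.0% of the class and 76.8% of distal peaks (odds ratio 0.612, 0.546 to 0.686, Fisher's exact test p = 2.81e-16). In 40 peaks (2.75%) the q-value was above 0.05, as it was in 3.25% of distal peaks. The weakest were SPAG7 (signal value 6.64, −log10 q-value 0.0358) and ANXA3 (6.78, −log10 q-value 0.0612). Both held the score of 1000, so the highest score did not exclude a low signal value or a high q-value. A width of exactly 444 bp was found for 73.4% of the class and 60.9% of distal peaks.

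Summits were more often upstream than downstream of the TSS. The summit was upstream for 943 peaks (64.9%), downstream for 502 (34.5%) and on the TSS itself for 9, one of them TEAD1. The median distance was 143 bp, and 951 peaks (65.4%) were within 250 bp. The 50 bp directly upstream of the TSS held 268 summits (18.4%), and the 50 bp beyond them 161 (11.1%). The 50 bp starting at the TSS held 154 (10.6%), including the 9 on the TSS itself. At CpG-poor promoters these bins held 8.63%, 9.03% and 6.33% of summits. From 501 to 1000 bp away, 116 summits of the class were upstream and 157 downstream. By annotation, 532 summits (36.6%) were outside protein-coding genes, 499 (34.3%) in introns, 323 (22.2%) in UTRs, 42 in coding exons and 58 in other exons. A TSS of a long non-coding RNA was within 1 kb of 353 summits (24.3%). Signal did not follow position or composition: across the 1454 peaks, Spearman's rho of the signal value was -0.00614 with distance and -0.0276 with the CpG ratio, given as descriptions. At the edges of the rule, L1CAM and SRSF9 were just inside 1 kb (993 and 990 bp) and TES and ZNF850 just outside (1002 and 1007 bp), while ERBB2 and FAM111A were just above the CpG threshold (ratios 0.6001 and 0.6006) and LYPLA2 and RASL10B just below (both 0.599).

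**Figure D1:**
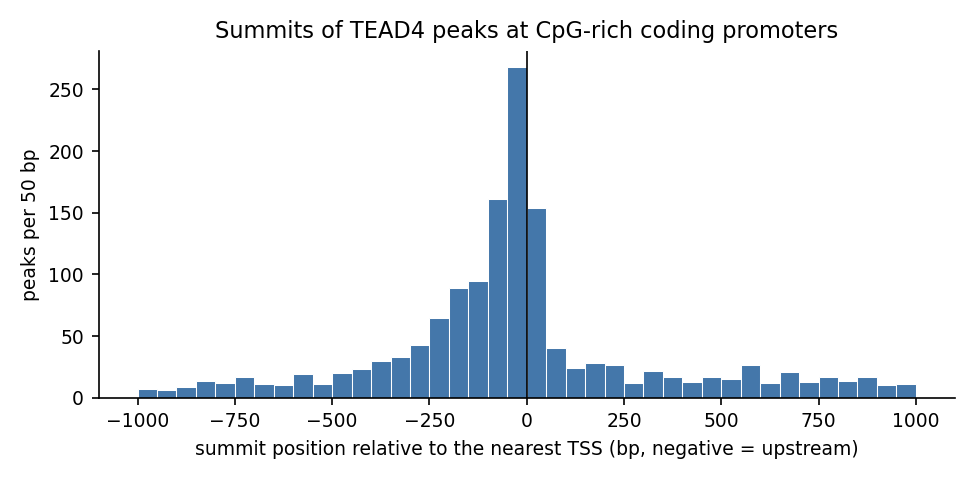
Number of summits per 50 bp (vertical axis) by position relative to the nearest protein-coding TSS in bp (horizontal axis, negative is upstream) for the 1454 peaks at CpG-rich promoters. The tallest bar, 268 summits, is the 50 bp directly upstream of the TSS. Near the TSS the upstream side falls off more slowly than the downstream side. From 501 to 1000 bp away the upstream side holds fewer summits (116 against 157).

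The TEAD motif was frequent at these summits despite their GC-rich surroundings. ACATTCC was present within 100 bp of 281 of 1454 summits (19.3%, 17.4 to 21.4%), against 75 of 2908 windows of equal width 2 kb to either side (2.58%, odds ratio 9.05, 6.95 to 11.8, Fisher's exact test p = 3.55e-76). It was as a rule close to the summit, with a median distance of 15 bp, and 98 of the 281 peaks (34.9%) had it within 10 bp and 213 (75.8%) within 25 bp. Its orientation did not follow that of the gene, since 46.3% (40.5 to 52.1%) of the nearest matches read along the strand of the gene. Over all 14218 CpG-rich promoters, the motif was found in 1.20% of windows of 201 bp centred on the TSS and in 6.51% of windows of 1001 bp. The shorter CATTCC was within 100 bp of 651 summits (44.8%, 42.2 to 47.3%) and in 10.7% of the flanking windows (odds ratio 6.75, 5.77 to 7.89, Fisher's exact test p = 2.26e-137). Among the 1173 peaks without ACATTCC, 370 (31.5%) still held CATTCC, against 8.37% of the flanking windows without ACATTCC (odds ratio 5.05, 4.21 to 6.05, Fisher's exact test p = 1.65e-70), a comparison added after the first values were seen.

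Compared with the other classes, ACATTCC was somewhat rarer. It was found at 23.1% of distal summits (odds ratio 0.796, 0.696 to 0.911, p = 0.000826 by Fisher's exact test and 0.00107 after Benjamini-Hochberg adjustment for 13 motifs) and at 24.8% of CpG-poor promoter summits (odds ratio 0.727, 0.606 to 0.873, p = 0.000675 by the exact test and 0.000975 adjusted). With GC content of the window as a covariate, the odds ratio was 0.656 against distal peaks (0.563 to 0.765) and 0.786 against CpG-poor ones (0.632 to 0.978), both past the threshold in a logistic model, and with the longer ACATTCCA it was 0.562 and 0.564. With the shorter CATTCC, found at 44.8% of summits of the class and 46.8% of distal ones, the call against distal peaks was lost (0.922, 0.828 to 1.03, Fisher's exact test p = 0.140) and that against CpG-poor peaks was not (0.833, 0.716 to 0.969, Fisher's exact test p = 0.0187). The call against distal peaks was also lost among peaks of the highest score or above the list median (odds ratios 0.880 and 0.901), and that against CpG-poor peaks among peaks above the list median (0.799) and with 1 canonical TSS per gene (0.885).

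AP-1 motifs set the class apart far more than TEAD motifs did. TGACTCA or its reverse complement was within 100 bp of 75 summits (5.16%, 4.13 to 6.42%), against 27.1% of distal summits (odds ratio 0.146, 0.116 to 0.185, Fisher's exact test p = 7.70e-100) and 23.6% of CpG-poor promoter summits (odds ratio 0.176, 0.135 to 0.230, p = 8.77e-46 by the same test). With GC content of the window as a covariate these odds ratios were 0.145 and 0.247. With 1 canonical TSS per gene they were 0.149 and 0.345 (0.224 to 0.532 for the latter). The windows 2 kb away held it in 3.44% of cases, so that the enrichment at the summits of the class was small (odds ratio 1.53, 1.12 to 2.07, Fisher's exact test p = 0.00862), whereas distal summits had an odds ratio of 10.5 over their own flanks. Summits with AP-1 lay away from the TSS. AP-1 was found at 1.42% of summits within 50 bp of the TSS and at 14.7% of those 501 to 1000 bp away, and at 20 of 951 summits within 250 bp (2.10%) against 55 of 503 farther out (10.9%, odds ratio 0.175, 0.104 to 0.296, Fisher's exact test p = 2.56e-12, chosen after the shares by distance were seen). The median GC content of the windows fell over the same bins from 66.7% to 54.7%, and its part in the AP-1 shares by distance was not tested. Among peaks limited to 500 bp from a TSS, AP-1 was no longer more frequent than in the flanks (odds ratio 0.871, Fisher's exact test p = 0.547).

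Only 7 peaks of the class held both motifs, 274 held TEAD without AP-1, 68 held AP-1 without TEAD and 1105 (76.0%) held neither. The strongest 3 with both were AFG3L2, a mitochondrial protease subunit (signal value 277), AP1M1, a clathrin adaptor subunit (174), and VAMP5, a vesicle membrane protein (154). Windows for AFG3L2 (chr18:12377704-12377832) and VAMP5 (chr2:85585162-85585260) on the hg38 plus strand show the spacing, with capitals on the TEAD and AP-1 letters. They were separated by 35 bp at AFG3L2, by 100 bp at AP1M1 and by 5 bp at VAMP5.
AFG3L2: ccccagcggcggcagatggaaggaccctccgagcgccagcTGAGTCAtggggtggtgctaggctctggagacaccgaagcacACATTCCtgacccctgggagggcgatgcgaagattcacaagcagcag
VAMP5: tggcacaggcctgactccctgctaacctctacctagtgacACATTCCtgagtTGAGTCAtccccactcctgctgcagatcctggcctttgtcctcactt

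Motifs of general promoter factors were frequent at the summits. The choice of CpG-rich promoters fixes much of the base composition that such motifs need, so their shares are given as descriptions, beside those in the windows of 201 bp around the TSS of all 14218 CpG-rich promoters. The windows of the class were centred on summits up to 1 kb from the TSS, so the shares also differ by position and are not like for like. The GC box GGGCGG, read by SP and KLF factors, was within 100 bp of 53.5% of summits (50.9 to 56.1%) and in 68.2% of all CpG-rich promoter windows, against 4.68% of distal and 13.4% of CpG-poor summits. In windows centred on the TSS it was in 66.5% of promoters with a peak of the class and 68.7% of promoters without a TEAD4 peak. The ETS motif CCGGAAG was found at 12.4% of summits, in 14.5% of all promoter windows and at 1.25% of distal summits. For NRF1 (GCATGCGC) these shares were 3.58%, 3.83% and 0.196%. CRE (TGACGTCA) had 2.75%, 2.44% and 0.261%, and E2F (TTTGGCGC or TTTCCCGC) 2.54%, 2.38% and 0.294%. The E-box CACGTG was at 6.53% of summits and in 6.53% of all promoter windows, against 2.31% of distal summits, and NFY (CCAAT followed by C or G and then A or G) at 14.2%, 15.5% and 6.59%. RUNX (TGTGGTT) was found at 2.82% of summits, in 1.24% of all promoter windows and at 10.2% of distal summits. The windows 2 kb to either side of the summits of the class held it in 2.89% of cases. YY1 (AAGATGG) had 3.78%, 5.82% and 3.14%, ZNF143 (ACTACAAT) 0.413%, 0.324% and 0.402%, and the CArG box of SRF 1.10%, 0.612% and 1.60%. The CRE and AP-1 letters differ, so 1 stretch cannot count for both. The median GC content of the windows was 63.2% in the class and 43.8% at distal peaks.

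**Figure D2:**
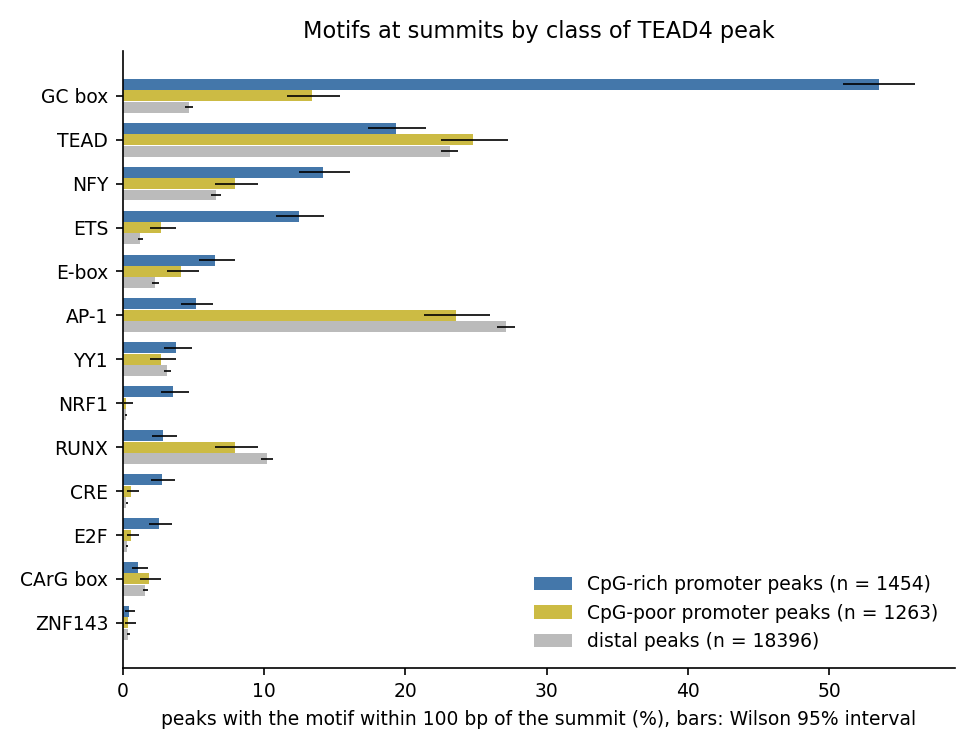
Share of peaks with each of 13 motifs within 100 bp of the summit (horizontal axis, percent) in the 1454 CpG-rich promoter peaks, 1263 CpG-poor promoter peaks and 18396 distal peaks, with Wilson 95% intervals as error bars. The GC box reaches 53.5% in the first class, whose AP-1 bar (5.16%) is the shortest of the 3 AP-1 bars.

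A comparison within CpG-rich promoters set 1509 promoters with a peak of the class (bound) against 12036 CpG-rich promoters of genes with no TEAD4 peak within 1 kb of any TSS (unbound). Their CpG ratios were close (medians 0.797 and 0.793), and the median GC content was 62.6% and 64.6%. Here the TEAD motif gave the largest difference of the 13. ACATTCC was found within 500 bp of the TSS in 292 bound promoters (19.4%, 17.4 to 21.4%) and 598 unbound ones (4.97%, 4.59 to 5.37%), an odds ratio of 4.59 (3.94 to 5.34, Fisher's exact test p = 3.17e-73). The GC box (95.2% against 94.7%, odds ratio 1.10, 0.858 to 1.41), NFY (32.7% against 31.7%, 1.05, 0.936 to 1.18) and the E-box (20.3% against 21.2%, 0.947, 0.829 to 1.08), motifs with a higher share than at distal peaks, did not pass the test between bound and unbound promoters, nor did ETS (31.1% against 28.5%, 1.13), YY1, E2F and ZNF143. Smaller differences passed it for RUNX (10.4% against 7.05%, odds ratio 1.53, adjusted p = 4.63e-05), the CArG box (4.37% against 2.85%, 1.56, adjusted p = 0.00579), CRE (6.03% against 4.22%, 1.46, adjusted p = 0.00579), AP-1 (8.61% against 6.47%, 1.36, adjusted p = 0.00579) and NRF1 (9.87% against 8.07%, 1.25, adjusted p = 0.0426), all by Fisher's exact test with Benjamini-Hochberg adjustment over 13 motifs. For AP-1, the longer TGACTCAT gave an odds ratio of 1.18 that did not pass (Fisher's exact test p = 0.510). In the narrower window within 100 bp of the TSS, CRE (2.65% against 2.45%, odds ratio 1.08) and the CArG box (0.861% against 0.582%, 1.49) did not pass. RUNX, AP-1 and NRF1 still passed there after adjustment (odds ratios 1.75, 1.91 and 1.38). GC content was used as a covariate in this comparison for TEAD and AP-1 only, so its part in the other differences was not tested.

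Around unbound TSSs the TEAD motif was scarce. Its density there fell to 2.66 matches per 1000 promoters in the 100 bp upstream of the TSS and was 15.0 in the outermost upstream bin, between 900 and 1000 bp. Around bound TSSs it was highest in that same 100 bp, at 35.8 per 1000 promoters. Within 100 bp of the TSS, 99 bound (6.56%) and 66 unbound promoters (0.548%) had ACATTCC (odds ratio 12.7, 9.28 to 17.5, Fisher's exact test p = 1.79e-52). Read the other way, 99 of the 165 promoters with the motif this close to the TSS (60.0%, 52.4 to 67.2%) were bound, against 10.5% of those without it. The TSS of a bound gene was taken as the one nearest to the summit, which can favour motifs near it. With the canonical TSS for every gene, 55 of 117 promoters with the motif within 100 bp (47.0%, 38.2 to 56.0%) and 9.60% of the others were bound (odds ratio 8.36, 5.79 to 12.1, Fisher's exact test p = 5.20e-25, added after the first values were seen).

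Inside the class, the TEAD motif went with signal. It was present in 180 of the 727 peaks above the median of the class (24.8%, 21.8 to 28.0%) and in 101 of the 727 others (13.9%, 11.6 to 16.6%), an odds ratio of 2.04 (1.56 to 2.67, Fisher's exact test p = 1.91e-07). With the class cut into 5 bins of rising signal value, each of 290 or 291 peaks, the share was 12.03%, 13.4%, 20%, 22.7% and 28.5%. The median signal value was 66.0 with the motif and 52.3 without it. The other classes went the same way when cut at the list median. Above it and not above it, the TEAD shares were 30.3% and 18.9% at CpG-poor promoters and 27.8% and 18.2% at distal peaks. In the class they were 25.8% and 15.8%. AP-1 shares over the 5 bins ran between 3.09% and 8.25% without a steady order. The median signal value was 68.1 with AP-1 and 54.1 without it. Of the peaks of the class above the list median, 7.42% (5.45 to 10.0%) held AP-1, against 3.93% (2.86 to 5.37%) of the others. This AP-1 difference was not tested. For the TEAD motif, limiting the list to peaks above its median left an odds ratio of 1.51 that did not pass the exact test (p = 0.0547). The TEAD motif was also less frequent at summits within 250 bp of the TSS (165 of 951, 17.4%) than at those farther out (116 of 503, 23.1%, odds ratio 0.700, 0.536 to 0.915, Fisher's exact test p = 0.00977), a call that was lost with the GC content of the window as a covariate (odds ratio 0.778, logistic model p = 0.0910).

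**Figure D3:**
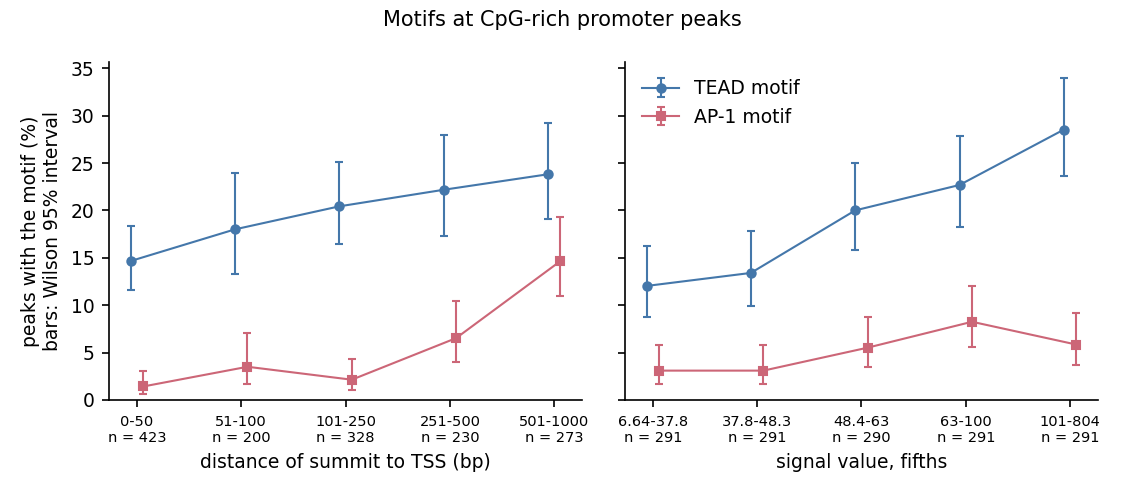
Share of CpG-rich promoter peaks with the TEAD or the AP-1 motif within 100 bp of the summit (vertical axis, percent, Wilson 95% intervals) by distance of the summit to the TSS (left) and by 5 bins of the signal value (right). The TEAD share rises with signal from 12.03% to 28.5%, and the AP-1 share is highest, at 14.7%, in peaks 501 to 1000 bp from the TSS.

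By gene, 1512 of the 14269 protein-coding genes with a CpG-rich TSS (10.6%) had a peak of the class within 1 kb of such a TSS. Of the peaks, 1249 were near 1 gene, 190 near 2 genes and 15 near 3 or more, and 152 genes had 2 peaks. Overlapping peaks with summits of their own are counted separately, and the 1454 peaks form 1373 regions when overlapping ones are merged. FUZ, TM7SF3, TRAF4, DLC1 and MICA had 3 peaks each, of which all 3 at TM7SF3 and 2 each at TRAF4 and MICA overlapped. TRAF4, a signalling adaptor, had signal values of 162, 131 and 28.4, and DLC1, a RhoGAP tumour suppressor, of 121, 43.0 and 35.2. The 3 peaks of TM7SF3 were weak (33.4, 27.2 and 6.94). Genes with a peak of the class had further peaks around them more often. A summit over 2.5 kb and at most 50 kb from the nearest TSS of the gene was found for 1005 of the 1512 genes (66.5%, 64.0 to 68.8%) and for 6134 of the 12084 unbound genes (50.8%, 49.9 to 51.7%, odds ratio 1.92, 1.72 to 2.15, Fisher's exact test p = 3.17e-31). The median number of such further peaks was 1 in both groups of genes. The bound genes had a median of 8 annotated TSS positions and the unbound genes 6, and with 1 canonical TSS per gene the odds ratio was 1.80. Bound promoters had a TSS of another coding gene on the opposite strand within 1 kb in 22.1% of cases and unbound ones in 19.3% (odds ratio 1.19, 1.05 to 1.36, Fisher's exact test p = 0.00889), a difference that did not pass with peaks of the highest score only (odds ratio 1.04) or with 1 canonical TSS per gene (1.12). By chromosome, the share of CpG-rich genes with a peak ran from 2.94% on Y (1 of 34), 3.73% on X and 4.18% on 22 to 15.1% on 14.

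Genes of TEAD and its cofactors had the highest share of the 20 gene lists, 4 of 9 (44.4%, 18.9 to 73.3%), beside 10.6% of all CpG-rich genes. They were TEAD4 itself (signal value 360, summit 16 bp downstream of the TSS in a UTR), TEAD1 (276), YAP1 (152) and VGLL4, a TEAD-binding repressor (130). All of these 4 summits had CATTCC within 100 bp, as did 44.8% of the class, with 3 copies at TEAD4 and 2 at TEAD1. YAP1 alone had ACATTCC. Its window (chr11:102110245-102110331, hg38 plus strand, capitals on the TEAD motif read on the minus strand) lies upstream of the TSS.
YAP1: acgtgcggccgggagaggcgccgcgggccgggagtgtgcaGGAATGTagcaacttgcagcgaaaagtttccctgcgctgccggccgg

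The next lists were read against the same 10.6% of all CpG-rich genes. Of Hippo kinases and upstream regulators, 9 of 28 (32.1%, 17.9 to 50.7%) had a peak. The strongest were AMOTL2, AJUBA and PTPN14, followed by the kinase LATS2 (462), whose summit was 5 bp from a TSS, and by WWC2 (232), RASSF1 (132), TNIK (88.0), WWC3 (57.4) and the scaffold SAV1 (43.7). WWC2, which activates LATS kinases, had 3 copies of CATTCC near its summit. Of the listed YAP-TEAD targets, 6 of 20 (30%, 14.5 to 51.9%) had a peak. All 6 had CATTCC within 100 bp, beside 44.8% of all summits of the class. Besides AMOTL2, PTPN14 and LATS2, which stand in both lists, they were CCN2, the receptor tyrosine kinase AXL (416) and the matricellular gene CCN1 (118). The AXL summit was the only one of these 6 with an AP-1 motif. Of actin cytoskeleton and adhesion genes, 9 of 25 (36.0%, 20.2 to 55.5%) had a peak, the filamins FLNC (259) and FLNA (222) with the highest signal values and ACTG1, CNN2, ACTN4, TPM1, ACTN1, ZYX and ITGB1 between 47.2 and 93.1. CATTCC was near 6 of the 9 summits and ACATTCC near none, beside 44.8% and 19.3% of all summits of the class. Cell cycle genes had 8 of 35 (22.9%, 12.1 to 39.0%), led by the CDK inhibitor CDKN2C (112) and CDK6 (108).

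Genes of the scar matrix were read against the same 10.6% of all CpG-rich genes. Of 20 CpG-rich genes for matrix glycoproteins and collagen-modifying enzymes, 4 (20%, 8.07 to 41.6%) had one. THBS1, the thrombospondin that activates latent TGF-β, stood out with a signal value of 476 at a summit 39 bp upstream of the TSS. LOX, the collagen cross-linking oxidase, had 117, TIMP2 103 and PLOD2 28.7. Only 8 of the 18 listed collagens have a CpG-rich TSS, and COL12A1 alone of these had a peak (1 of 8, 12.5%, signal value 135). COL1A1, COL1A2, COL3A1 and the stellate cell receptor PDGFRB could not enter the class, since their highest CpG ratios were 0.577, 0.490, 0.292 and 0.337. A TEAD4 summit was nevertheless within 1 kb of a TSS of COL1A2, a CpG-poor promoter, and the nearest summits to COL1A1, COL3A1 and PDGFRB were 8033, 5174 and 1493 bp from a TSS. ACTA2, the smooth muscle actin of myofibroblasts, has a CpG-rich TSS (ratio 0.719), but the nearest summit was 11920 bp away. Of TGF-β and SMAD genes, 3 of 20 (15.0%, 5.24 to 36.0%) had a peak, SKI (84.7), SMAD4 (71.3) and TGFBR1 (54.7). The mesenchymal factors SRF (88.2), RUNX1 (86.4) and SNAI1 (32.8) were 3 of 23 (13.04%). BNC2 had a peak 50 bp from a TSS that is not CpG-rich and is outside the class. OGT, the O-GlcNAc transferase, had its nearest summit 78665 bp from a TSS, and PGM3 (139) was the only one of 7 genes of O-GlcNAc cycling and the hexosamine pathway with a peak. Of AP-1 and related bZIP genes, 1 of 15 had one, ATF3 (67.4).

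Housekeeping lists lay near the share of all CpG-rich genes. Cytosolic ribosomal proteins had 10 of 77 (12.99%, 7.21 to 22.3%), with RPL6 (161, in a peak nearest to PTPN11) and RPS3A (148) the strongest. Mitochondrial ribosomal proteins had 9 of 73 (12.3%), the respiratory chain 5 of 76 (6.58%), the proteasome 3 of 37 (8.11%), splicing factors 6 of 41 (14.6%) and histones 7 of 75 (9.33%). MRPL36 and NDUFS6 share 1 peak (148) between them, as do MRPL47 and NDUFB5 (44.3) and the histone genes H2AC4 and H3C2 (131). Also named were MRPL49 (75.6) among mitochondrial ribosomal proteins, NDUFC1 (120) of the respiratory chain, PSMA3 (104) and PSMC5 (47.1) of the proteasome, HNRNPR (88.9) and HNRNPD (71.4) among splicing factors, and H4C8 (161) and H3-3B (133, in a peak nearest to UNK) among histones. Genes named ZNF had 52 of 403 (12.9%, 9.98 to 16.5%), led by ZNF181 (187) and ZNF28 (169, in a peak nearest to ZNF468). That peak counted for both genes, and ZNF2 with ZNF514, ZNF568 with ZNF829 and ZNF490 with ZNF791 also shared 1 peak each. HOX genes had the lowest share, 1 of 36 (2.78%, 0.492 to 14.2%), HOXD8 at 33.7. Of the 5 hepatocyte identity genes with a CpG-rich TSS, FOXA3 was near a peak (50.2) whose nearest TSS was that of SYMPK. The lists were described by their counts and were not tested.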

How the data were processed

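TEAD4 ChIP-seq and input reads of LX-2 cells were mapped to hg38 with Chromap by the authors, who ran the ENCODE IDR (irreproducible discovery rate) pipeline on replicates 1 and 3 and left out replicate 2 as not concordant enough. The peak caller is not given in the sources used here. The deposited list gives per peak a score (scaled IDR, at most 1000), a signal value of the peak caller, the −log10 q-value and the summit offset, meanings that were read from the layout of the list. Its p-value column, as deposited, holds only a placeholder. Depth and values of single replicates were not analysed here.

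Peaks were assigned to TSSs of GENCODE release 44, and both strands of the hg38 sequence within 100 bp of each summit were searched for motifs. Each gene was represented once, by the CpG-rich TSS nearest a summit if bound and otherwise by the Ensembl canonical TSS if CpG-rich, else its first CpG-rich TSS, and shared positions were counted once. Fisher's exact test (two-sided) compared shares, its p-values were adjusted for 13 motifs after Benjamini-Hochberg, and logistic models took GC content as a covariate. All p-values are approximate because neighbouring peaks are not independent. The named genes were the strongest peaks, the strongest with TEAD or with both motifs, the strongest 2 of each gene list, genes of the study, those at the edges of the rule and those with the most or weakest peaks. Other members of the short lists were named after their values were seen. The class, gene lists and tests were chosen with earlier results of these data known. Alternatives changed the peaks used, distance, TSSs, CpG threshold, motif, window, flanks and covariate. The code was tested on simulated data. Python 3.11.15, pysam 0.24.0, scipy 1.17.1, pandas 2.3.3, statsmodels 0.14.6, matplotlib 3.10.9 and numpy 2.4.6 were used.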

Additional observations from a re-analysis of the deposited data

How the results depend on the processing

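Of 154 alternatives for 15 comparisons, 137 kept the direction and the side of the 0.05 threshold, 16 kept the direction and lost the call, and 1 reversed. For AP-1 against the flanks, the odds ratio reversed to 0.871 at 500 bp from the TSS and lost the call with TGACTCAT (1.81) and with windows of 250 bp (1.01). The TEAD motif against distal peaks lost its call with CATTCC (0.922), with peaks above the list median (0.901) and with peaks of the highest score (0.880), and against CpG-poor peaks with 1 canonical TSS per gene (0.885) and peaks above the list median (0.799). AP-1 in bound against unbound promoters lost it with TGACTCAT (1.18), and TEAD in strong against weak peaks with peaks above the list median (1.51). For TEAD near against far from the TSS, it was lost with GC content (0.778), at 500 bp (0.737) and with peaks above the list median (0.791). Opposite-strand TSSs lost it with a CpG threshold of 0.75 (1.09), 1 canonical TSS (1.12), peaks above the list median (1.01) and peaks of the highest score (1.04). Fewer peaks enter the fits restricted by signal or score, and where these lost a call the odds ratio was also nearer to 1. The cause of the losses was not tested.

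Over all alternatives the odds ratio of TEAD against distal peaks ran from 0.562 to 0.922 and against CpG-poor peaks from 0.564 to 0.885. The odds ratio of TEAD in bound against unbound promoters ran from 2.72 to 7.88 and that of TEAD against flanks from 4.22 to 14.7. For AP-1 it ran from 0.0829 to 0.242 against distal peaks and from 0.105 to 0.345 against CpG-poor peaks. The score could not be compared among peaks above the list median, as no odds ratio could be computed. No paired analysis was possible because each peak has 1 value for both replicates together, which also kept replicates from being left out in turn. The unknown depth limits what the absence of a peak shows.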
